A study of Rattus norvegicus with 6 samples.

Results

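Expression of 10 core cardiac transcription factor genes was examined in cultured primary rat heart cells with and without progesterone, a steroid hormone. The genes were Gata4, Gata6, Nkx2-5, Isl1, Tbx5, Tbx20, Mef2a, Mef2c, Mef2d and Hand2, taken by symbol from the 33565 rows of the gene count table. Each symbol matched 1 row, and all 10 passed the filter on low counts. Both groups were primary heart cells of Sprague-Dawley rats at postnatal day 7, grown in medium with 10% fetal bovine serum. The Control group (n = 3 libraries) received vehicle and the Progesterone group (n = 3) received 100 nM progesterone, both for 24 h. mRNA-enriched RNA was sequenced to between 21156793 and 25376220 counts per library. The labels call the libraries biological replicates without naming separate animals or cultures, and p-values here therefore speak of library-to-library spread alone, part of which may be technical. No batch is named. The series title links progesterone to the coactivator YAP, cardiomyocyte proliferation and cardiac repair, and the question here is what the factors that specify the heart muscle cell did under the same treatment.

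These factors form a network that specifies and maintains heart muscle. GATA4 and GATA6 are zinc finger proteins, NKX2-5 and ISL1 are homeodomain proteins, TBX5 and TBX20 carry a T-box, the MEF2 proteins carry a MADS box, and HAND2 is a basic helix-loop-helix protein. They bind one another and share targets such as the natriuretic peptide and sarcomere genes, and ISL1 marks progenitors of the second heart field and pacemaker cells rather than working myocardium. Several, among them GATA4, GATA6, TBX20 and HAND2, are also made by other cells of the heart, including fibroblasts, endocardial and epicardial cells. Fibroblast and other markers were read in these cultures too, so the levels and changes given here cannot be assigned to cardiomyocytes alone.

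RefSeq promoter entries (rat build GRCr8, 250 bases before to 50 after the annotated start) were found for 8 of the 10 genes and not for Gata4 or Mef2c. A set of 4 is shown because it holds a gene that rose with none of the 4 motifs marked (Nkx2-5), a gene that rose with a MEF2 motif in its own promoter (Mef2a), the gene that fell (Mef2d) and the gene in which 1 library stood apart (Hand2). Capitals mark matches, on either strand, to the GATA motif (GATA with A or T before it and A or G after it), the NKX motif (AAGTG), the T-box motif (AGGTGT) or the MEF2 motif (CTA, any 4 bases, then TAG). In Hand2 the NKX match shares bases with an E-box (CANNTG), which is not marked. No other marked match shown overlapped a motif searched.
Nkx2-5, chr10:16848350-16848649, plus strand: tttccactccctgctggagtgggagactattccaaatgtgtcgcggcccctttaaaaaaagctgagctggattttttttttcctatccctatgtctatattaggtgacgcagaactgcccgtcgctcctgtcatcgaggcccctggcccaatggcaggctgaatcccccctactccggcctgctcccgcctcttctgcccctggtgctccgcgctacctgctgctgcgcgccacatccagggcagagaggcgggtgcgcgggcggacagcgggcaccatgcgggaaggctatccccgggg
Mef2a, chr1:130392113-130392412, minus strand: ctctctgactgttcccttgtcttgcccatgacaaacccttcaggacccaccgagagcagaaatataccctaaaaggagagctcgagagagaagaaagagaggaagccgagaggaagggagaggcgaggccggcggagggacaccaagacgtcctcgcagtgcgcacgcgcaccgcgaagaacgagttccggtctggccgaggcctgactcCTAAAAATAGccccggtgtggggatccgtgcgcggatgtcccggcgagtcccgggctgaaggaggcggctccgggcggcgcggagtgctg
Mef2d, chr2:175904082-175904381, plus strand: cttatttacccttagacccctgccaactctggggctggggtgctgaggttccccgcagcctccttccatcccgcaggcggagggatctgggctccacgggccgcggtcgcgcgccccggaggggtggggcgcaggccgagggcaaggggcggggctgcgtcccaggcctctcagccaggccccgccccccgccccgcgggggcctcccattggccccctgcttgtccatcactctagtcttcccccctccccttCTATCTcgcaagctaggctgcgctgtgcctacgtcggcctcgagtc
Hand2, chr16:37931439-37931738, minus strand: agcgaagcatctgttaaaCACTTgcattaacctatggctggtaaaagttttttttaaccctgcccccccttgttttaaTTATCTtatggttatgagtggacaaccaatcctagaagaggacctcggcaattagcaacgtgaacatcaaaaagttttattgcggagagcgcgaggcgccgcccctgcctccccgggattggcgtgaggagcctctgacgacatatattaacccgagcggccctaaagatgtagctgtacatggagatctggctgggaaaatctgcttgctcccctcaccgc

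The MEF2 motif in the Mef2a promoter begins 40 bases before the annotated start, and 3.84% of the 33469 promoter entries of this length hold that motif. Mef2a was the only one of the 8 with it. A GATA motif was found in 4 of the 8 (Hand2, Mef2d, Tbx5 and Isl1), against 30.3% of all entries, and an NKX motif in Hand2 alone, against 46.2%. A T-box motif was found in Gata6 alone, against 13.6% of all entries. An unmarked E-box was found in 4 of the 8 (Nkx2-5, Tbx5, Hand2 and Isl1), against 72.1%. The TEAD motif (GGAATG), the interferon response motif (GAAA, any 2 bases, then GAAA) and the steroid half-site (TGTTCT) were in none of the 8, against 14.2%, 3.92% and 20.7% of all entries. Tbx20 held none of the 8 motifs searched. GC content ran from 49.3% in Hand2 to 71.3% in Mef2d, beside a median of 51.7% over all entries. A match describes letters in this window and shows no binding, and a window without one says nothing of the factor.

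The 10 genes spanned a wide range of levels, given here as FPKM (read numbers scaled by gene length and library total). The order between genes depends on the length of each row, such as 645 bases for Hand2 and 6451 for Mef2c. Whether these lengths are complete was not tested. Before scaling by length, Mef2c had more counts over the controls than Gata6 (3681 and 3529), and Tbx5 more than Hand2 (1098 and 917). In the controls Gata4 (85.0 ± 2.83 FPKM, SD, n = 3) and Tbx20 (82.3 ± 8.03) were the highest, and the ranges of this pair overlapped. Nkx2-5 followed at 67.0 ± 1.27, Mef2a at 45.8 ± 1.17 and Mef2d at 33.7 ± 2.29 FPKM, each apart from its neighbours in the order. Gata6 (22.8 ± 1.91) and Hand2 (19.9 ± 3.10) overlapped. Mef2c lay at 7.95 ± 0.0963, Tbx5 at 4.36 ± 0.247 and Isl1 at 0.385 ± 0.0722 FPKM. With progesterone Tbx20 (112 ± 2.71 FPKM) stood above Gata4 (95.2 ± 2.23) in every library, and the rest of the order was kept, with Hand2 and Mef2c overlapping through 1 low Hand2 library. Isl1 was read only 12 to 26 times per library.

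**Figure D1:**
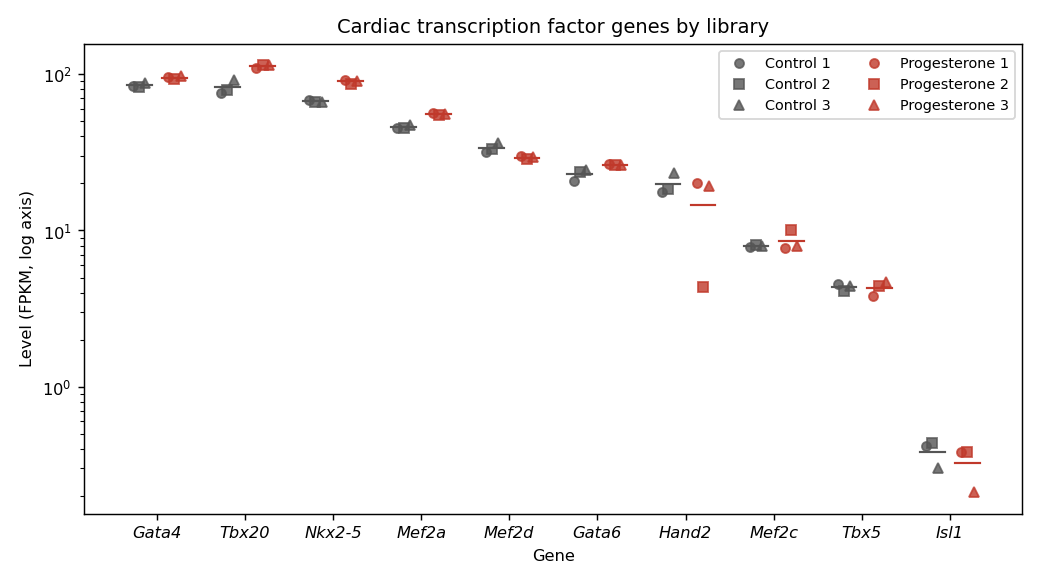
Level of each factor gene in each library (FPKM, log axis) for 3 Control and 3 Progesterone libraries; marker shapes give the replicate number and short lines the group means. Gata4, Tbx20 and Nkx2-5 lie at the top and Isl1 at the bottom, and the library Progesterone 2 is low for Hand2 (4.35 FPKM).

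Among the 1508 rows that the deposited table assigns to a transcription factor family, Gata4 ranked 26, Tbx20 27 and Nkx2-5 37 by mean control FPKM. With progesterone they ranked 13, 10 and 15. Of the 26 rows above Tbx20 in the controls, 14 fell, 8 rose and 9 remained above it, by levels after treatment. Isl1 ranked 982 in the controls. Being taken from FPKM, the ranks depend on the row lengths as well.

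Of the 10 genes, 5 rose (Tbx20, Nkx2-5, Mef2a, Gata6 and Gata4), 1 fell (Mef2d) and 4 did not pass the test (Tbx5, Mef2c, Hand2 and Isl1), by edgeR's quasi-likelihood test with Benjamini-Hochberg adjustment at 0.05 over 15075 genes. In the same test 63% of all genes were called, 31.2% higher and 31.8% lower, so that 6 called of 10 is a share near the background. Upper quartile scaling turned the split of called genes from 49.6% higher to 60.1% higher. CPM values (counts relative to library size, scaled by TMM) of the groups did not overlap in 6 of the 10 genes, against 68.6% of all genes. The changes were small, with a median log2 fold change of 0.14 beside 0.00 for all genes, and a median size of 0.23 beside 0.34. None of the 10 reached 2-fold, whereas 17.1% of all genes did. The largest called change was 1.37-fold, for Tbx20, and 40.0% of tested genes had a larger one. The data cannot tell apart fewer cells of a type and less RNA per cell.

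**Figure D2:**
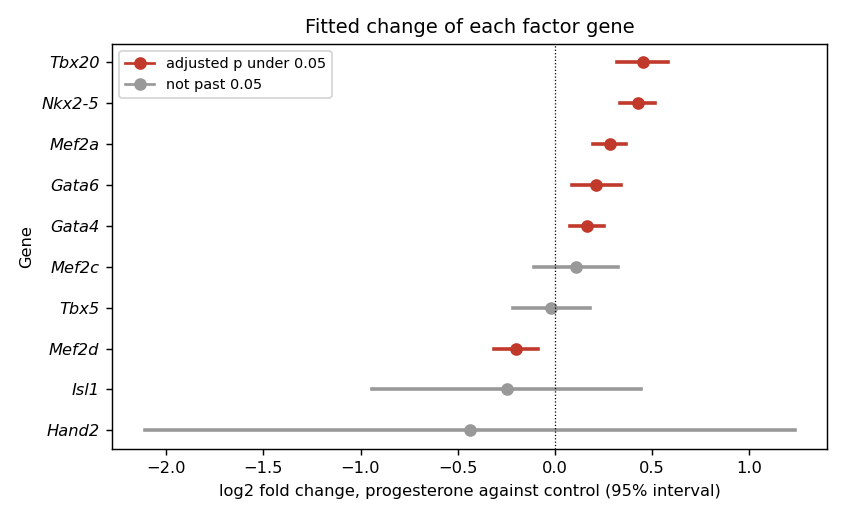
Fitted log2 fold change of each gene, progesterone against control, with its 95% interval; red marks an adjusted p under 0.05. Tbx20 (0.45) and Nkx2-5 (0.43) lead, Mef2d (-0.20) is the only called gene below 0, and Hand2 has the widest interval (-2.11 to 1.24).

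The GATA genes rose slightly. Gata4 (chromosome 15, 46386712 to 46432965, minus strand, by the coordinates of the deposited table, whose rat build is unnamed), a pioneer-type factor for cardiac enhancers, was read at 84.3, 82.6 and 88.1 FPKM in the controls and at 96.2, 92.7 and 96.8 FPKM with progesterone. Every progesterone library was above every control library. The fitted log2 fold change was 0.17 ± 0.04 (SE, adjusted p = 0.0029, edgeR), or 1.12-fold, and 0.26 with upper quartile scaling. Gata6 (chromosome 18, 2416552 to 2446338, plus strand), which overlaps with Gata4 in function in the heart, was read at 20.7, 23.6 and 24.2 FPKM in the controls and 26.8, 26.4 and 26.1 with progesterone. The groups did not overlap, and control replicate 1 was the lowest library. Its log2 fold change was 0.21 ± 0.06 (adjusted p = 0.0055), or 1.16-fold, and 0.14 without control replicate 1 (adjusted p = 0.036). The ratio of Gata4 to Gata6 FPKM within a library was 3.73 in the controls and 3.60 with progesterone, with overlapping ranges (exact permutation test, two-sided p = 0.70, 4 pairs compared, adjusted p = 0.70). Without control replicate 1 the difference in log2 ratio changed from -0.050 to 0.014, and without control replicate 2 to -0.097.

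The third cardiac GATA gene, Gata5, which is active in endocardium and epicardium, was not among the 10 and rose 1.27-fold, from 26.5 ± 1.32 to 33.6 ± 3.03 CPM (adjusted p = 0.00076). Zfpm1 and Zfpm2, which encode the FOG cofactors that bind GATA factors, had log2 fold changes of 0.03 (95% interval -0.09 to 0.14) and 0.02 (-0.12 to 0.16) and did not pass (adjusted p = 0.68 and 0.79). Gata5, Zfpm1 and Zfpm2 were chosen for description after their values were seen.

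Nkx2-5 was higher in every progesterone library than in any control, and Isl1 was too low for a firm statement. Nkx2-5 (chromosome 10, 16635989 to 16638764, plus strand), the homeobox factor that acts at the base of cardiac muscle specification, was read at 68.4, 66.6 and 66.0 FPKM in the controls and 92.1, 86.6 and 91.1 FPKM with progesterone. The control libraries lay close together and below all progesterone libraries. The log2 fold change was 0.43 ± 0.04 (adjusted p = 3.7e-07, edgeR), or 1.34-fold, the smallest adjusted p of the 10. Isl1 (chromosome 2, 48487736 to 48501436, minus strand) had 26, 25 and 17 counts in the controls and 20, 20 and 12 with progesterone. The groups overlapped, and the log2 fold change of -0.25 (95% interval -0.94 to 0.45, adjusted p = 0.53) was not detectable at this depth. It ran from -0.39 without control replicate 3 to -0.0047 without progesterone replicate 3.

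Tbx20 rose, and Tbx5 did not pass the test. Tbx20 (chromosome 8, 25850962 to 25904570, minus strand), needed for chamber growth and for cardiomyocyte identity in the grown heart, was read at 76.0, 79.6 and 91.3 FPKM in the controls and 109, 114 and 114 FPKM with progesterone. The groups did not overlap, and the controls were more spread than the treated libraries. Its log2 fold change was 0.45 ± 0.06 (adjusted p = 3.1e-05, edgeR). Tbx5 (chromosome 12, 42097626 to 42148146, plus strand), the Holt-Oram syndrome gene, was read at 4.56, 4.08 and 4.44 FPKM in the controls and 3.81, 4.40 and 4.70 FPKM with progesterone. The groups overlapped fully, and the log2 fold change of -0.02 (95% interval -0.22 to 0.18, adjusted p = 0.88) took the other sign without control replicate 1 (0.012), without progesterone replicate 1 (0.065) and with upper quartile scaling (0.079). The ratio of Tbx5 to Tbx20 within a library went from 0.0531 to 0.0381, a difference of -0.48 in log2, and its groups did not overlap. With 3 libraries against 3 the exact permutation test cannot go below 0.10, which is the value it gave (two-sided, adjusted p = 0.20 over 4 pairs).

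Other T-box genes stood on the list of cardiac factors. Tbx3, a transcriptional repressor that acts in the conduction system, rose 1.17-fold (13.6 ± 0.420 to 16.0 ± 1.34 CPM, adjusted p = 0.031). Tbx18, an epicardial and sinus node factor, fell 1.13-fold (49.8 ± 0.662 to 44.2 ± 1.44 CPM, adjusted p = 0.0085). Tbx2, a further repressor, was not called (log2 fold change 0.27 ± 0.13, adjusted p = 0.080). These 3 were also chosen after their values were seen. Of the 11 tested rows of the T-box family, 2 rose and 1 fell (27.3% called, against 63% of all genes).

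Among the MEF2 genes Mef2a rose, Mef2d fell and Mef2c did not pass the test. These factors carry calcium and stress signals to muscle genes, and class II histone deacetylases hold them in check. Mef2a (chromosome 1, 128209971 to 128341263, minus strand), an abundant form in the postnatal heart, was read at 45.3, 45.0 and 47.1 FPKM in the controls and 56.6, 54.9 and 55.4 FPKM with progesterone. The groups did not overlap and each was tight. The log2 fold change was 0.28 ± 0.04 (adjusted p = 2.1e-05, edgeR), or 1.22-fold. Mef2d (chromosome 2, 187512164 to 187538026, plus strand), which mediates stress-dependent remodelling, was read at 31.6, 33.3 and 36.2 FPKM in the controls and 29.9, 28.5 and 29.6 FPKM with progesterone. All treated libraries were below all controls, by little between control replicate 1 and progesterone replicate 1. The log2 fold change was -0.20 ± 0.05 (adjusted p = 0.0041), or 1.15-fold lower. Under upper quartile scaling, which shifted the median of all genes upward by 0.10, Mef2d no longer passed (-0.10, adjusted p = 0.10).

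Mef2c (chromosome 2, 11658568 to 11822787, plus strand), essential for looping and right ventricle formation, was read at 7.86, 8.05 and 7.94 FPKM in the controls and 7.76, 10.0 and 7.92 FPKM with progesterone. Progesterone replicate 2 was the high library, and the others lay among or just below the controls. It was not called (log2 fold change 0.11, 95% interval -0.11 to 0.33, adjusted p = 0.34), and without that library the value was -0.017 (adjusted p = 0.80). The MEF2 genes are similar in sequence, so that the counting could divide reads between them. Mef2b, the remaining family member, had 7 counts over the controls and 16 over the progesterone libraries and was too low to be tested.

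As a share of the summed FPKM of Mef2a, Mef2c and Mef2d, Mef2a made up 52.4% ± 0.902 of the controls and 59.5% ± 0.659 of the progesterone libraries (SD, n = 3). Mef2d made up 38.5% ± 1.15 and 31.3% ± 0.739, and neither gene's groups overlapped. Mef2c made up 9.10% ± 0.343 and 9.17% ± 1.37. These shares were not tested, and being taken within a library they do not depend on its scaling. Their sizes do depend on the row lengths, which were 3398 bases for Mef2a, 2137 for Mef2d and 6451 for Mef2c. The Mef2d to Mef2c ratio went from 4.23 to 3.44 without overlap (exact permutation test, two-sided p = 0.10, adjusted p = 0.20). The difference in log2 ratio was -0.30, and -0.16 without progesterone replicate 2. The ratio of Mef2a to Mef2c was 5.76 in the controls and 6.53 with progesterone, with overlap (p = 0.40, exact, adjusted p = 0.53). Its difference of 0.18 became 0.10 without progesterone replicate 1 and 0.31 without progesterone replicate 2.

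**Figure D3:**
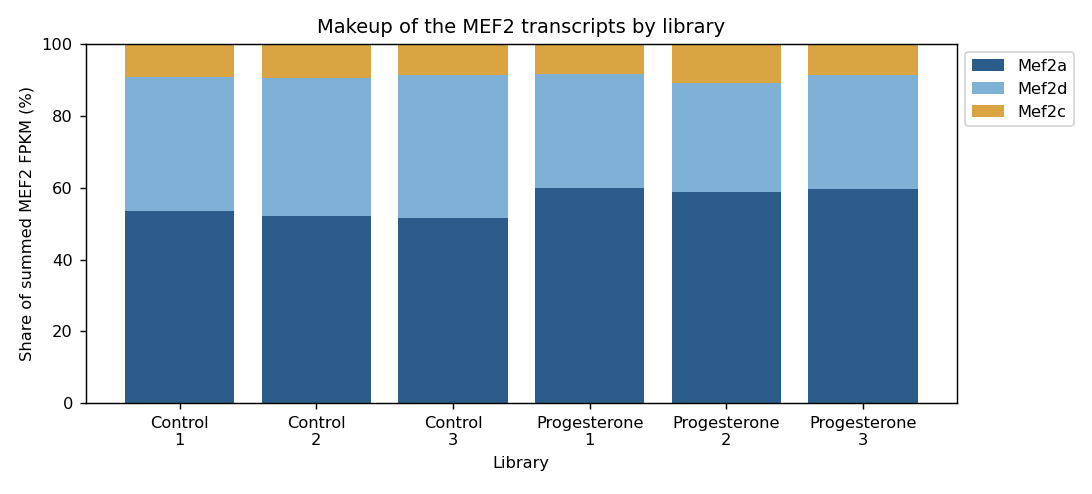
Share of each MEF2 gene in the summed FPKM of Mef2a, Mef2c and Mef2d (percent, stacked bars from 0 to 100) in each library. The Mef2a share lies at 51.7% to 53.4% in the controls and 58.8% to 60.0% with progesterone.

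Hand2 was set apart by 1 library. Hand2 (chromosome 16, 36371489 to 36373546, minus strand), which drives growth of the right ventricle, had 291, 279 and 347 counts in the controls and 277, 60 and 289 with progesterone, or 17.7, 18.5 and 23.4 against 20.3, 4.35 and 19.3 FPKM. Progesterone replicate 2 was far below all others, and the other treated libraries lay among the controls. The log2 fold change was -0.44 (95% interval -2.11 to 1.24, adjusted p = 0.58) and became -0.00 without that library (adjusted p = 0.98). Such drops were rare in that library, by a screen made with the Hand2 values known. That Hand2 passes the screen is therefore no separate support. Among 10706 tested genes whose other progesterone libraries both had at least 5 CPM and lay within 1.5-fold of each other, Hand2 and Mrpl30, a mitochondrial ribosomal protein gene chosen for naming after its value was seen, were the only 2 that lay at least 4-fold below the lower of these. The number was 2 to 6 in each of the 6 libraries. The cause was not tested.

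The rows next to Hand2 were more even across the treated libraries. An assembled locus without a gene name (36373852 to 36374492, same strand) begins 305 bases beyond the 5′ end of the Hand2 row. It was read at 20.4, 21.3 and 21.0 CPM in the controls and 17.3, 17.0 and 17.4 CPM with progesterone, so that progesterone replicate 2 did not stand out. It fell 1.21-fold (log2 fold change -0.28 ± 0.07, adjusted p = 0.0029) without overlap of the groups. A lincRNA row on the opposite strand, 1046 bases beyond the same end, was read at 8.39, 8.72 and 8.76 CPM in the controls and 10.7, 8.61 and 12.2 CPM with progesterone, and did not pass (0.28 ± 0.13, adjusted p = 0.061). The Hand2 row counts over 645 bases of a span of 2058, and whether the locus belongs to the Hand2 transcript is unknown here.

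Assembled loci also lay beside Tbx20 and Gata6. A locus of 4422 bases (25846534 to 25850955) ends 6 bases from the 3′ end of the Tbx20 row and is listed on the opposite strand. It had more counts than Tbx20 itself, 8580 to 8954 in the controls and 10222 to 11274 with progesterone, and rose 1.34-fold (log2 fold change 0.42 ± 0.05, adjusted p = 1.0e-06). Its count stood to that of Tbx20 in a ratio of 1.91 to 2.09 in all 6 libraries. Whether reads were counted by strand is unknown here, so reads of the pair may not be separable. The locus 279 bases beyond the 5′ end of Gata6 (2402395 to 2416272), on the opposite strand, had 53, 55 and 50 counts in the controls and 76, 25 and 90 with progesterone. It did not pass (0.39 ± 0.39, adjusted p = 0.42), and progesterone replicate 2 was again the low library, whereas Gata6 itself was even across the treated libraries.

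**Figure D4:**
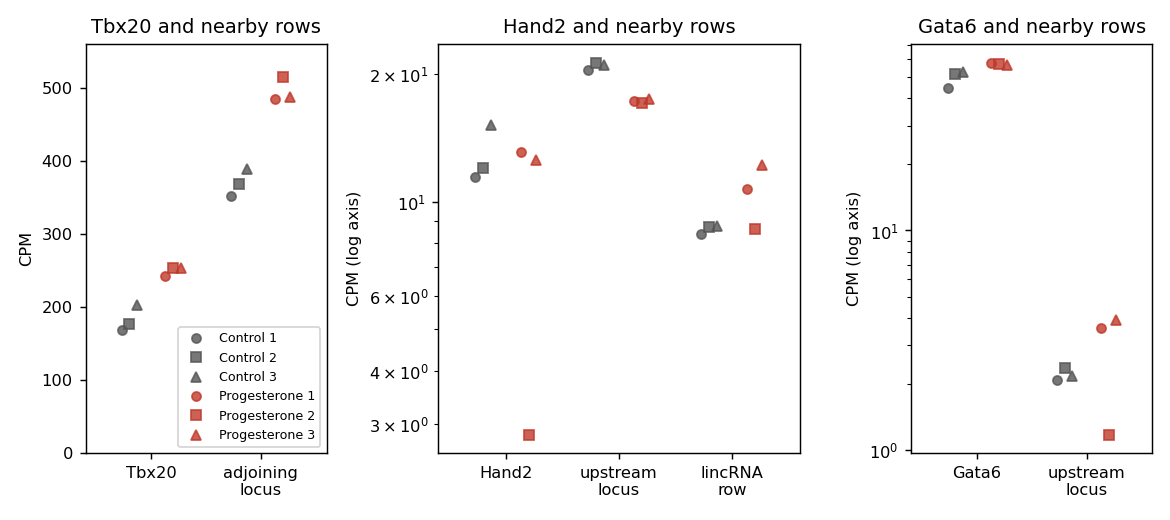
CPM of Tbx20, Hand2 and Gata6 and of the rows next to them in each library (linear axis from 0 for Tbx20, log axes for the others). The locus next to Tbx20 is raised together with it, and Progesterone 2 is low for Hand2 (2.82 CPM) and for the locus upstream of Gata6 (1.18 CPM) but not for the locus upstream of Hand2 (17.0 CPM).

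Other cardiac transcription factors moved both ways. Of 31 tested on a list of 35, 14 rose and 9 fell (74.2% called, against 63% of all genes), with a median log2 fold change of 0.27. Srf, the MADS box factor that partners GATA4 and NKX2-5, rose 1.85-fold, from 105 ± 3.26 to 194 ± 2.00 CPM (adjusted p = 4.7e-11). Foxc2, a forkhead factor of the outflow tract, rose 1.51-fold, and Foxp1, which acts on myocardial growth, 1.32-fold. Nfatc4, a calcineurin-dependent factor of hypertrophy, fell 2.36-fold, from 54.1 ± 2.09 to 22.9 ± 0.583 CPM (adjusted p = 4.8e-11). Prox1 fell 1.72-fold, Irx4, a ventricle-specific homeobox gene, 1.48-fold and Meis1, a factor linked to cell cycle exit of postnatal cardiomyocytes, 1.39-fold. Hand1, the paralog of Hand2, fell 3.04-fold from low levels (2.94 ± 0.0168 to 0.964 ± 0.238 CPM, adjusted p = 2.1e-05) and was chosen after its value was seen. Upper quartile scaling gave 16 higher and 8 lower on this list.

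Among 35 tested cofactors and repressors of the core factors, 14 rose and 9 fell (median 0.02). The share called was 65.7%, near the 63% of all genes. Id1, Id2 and Id3, which encode inhibitors of helix-loop-helix factors, rose 1.61-fold, 1.55-fold and 1.51-fold, and Hopx, a homeodomain-only regulator, rose 1.47-fold. Id3 was the most read of the Id genes named, at 256 ± 11.3 and 386 ± 3.99 CPM. Kat2b, an acetyltransferase, fell 1.91-fold, Hdac5, a class II deacetylase that represses MEF2, 1.38-fold, from 81.5 ± 0.498 to 58.9 ± 1.02 CPM (adjusted p = 1.3e-07), Ldb1 1.32-fold and Hdac1 1.29-fold. Hdac4, Hdac7 and Hdac9, the other class II genes on this list, did not pass. Their log2 fold changes were -0.04, 0.03 and -0.28 (adjusted p = 0.67, 0.54 and 0.11), and they were chosen after their values were seen. Upper quartile scaling gave 17 higher and 5 lower.

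Of 35 tested target genes of the core factors, 11 rose and 13 fell (median 0.03), or 15 and 8 with upper quartile scaling. With TMM 68.6% were called, near the 63% of all genes. Bmp10, a growth factor of trabecular myocardium, rose 5.83-fold from 1.21 ± 0.134 to 7.05 ± 0.799 CPM (adjusted p = 6.3e-09). Hcn4, the pacemaker channel, rose 1.68-fold (36.9 ± 1.55 to 62.1 ± 6.14 CPM), Actc1 1.62-fold and Tnnc1 1.44-fold. Chrm2, a muscarinic receptor, fell 1.62-fold, Adrb1, a beta-adrenergic receptor, 1.60-fold and Gja1, connexin 43, 1.58-fold.

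**Figure D5:**
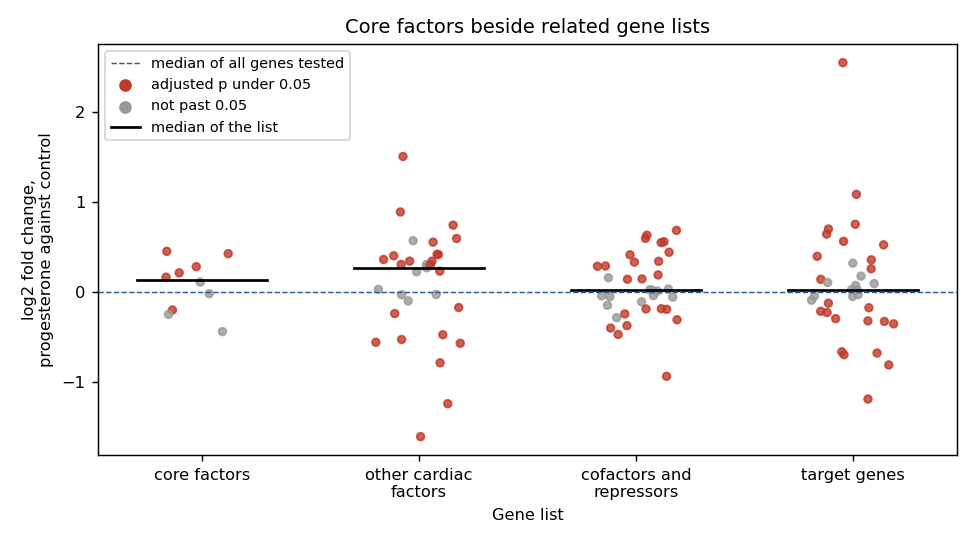
log2 fold change, progesterone against control, of the tested genes of the core factors and of 3 related lists; each point is a gene, red where the adjusted p is under 0.05, black lines are list medians and the dashed line the median of all genes tested. The core factors lie between -0.44 and 0.45, while the other lists reach from -1.60 to 2.54.

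Genes with the most similar profile were looked for among the 66 tested genes of the factor and cofactor lists, by the root mean square difference of mean-centred log2 CPM over the 6 libraries. Tbx20 was nearest to Yap1, the coactivator of the series title (0.0514). Nkx2-5 was nearest to Foxp1 (0.0565), and Mef2a to Jarid2 (0.0449) and Smyd1 (0.0615). Mef2d was nearest to Ncoa1 (0.0241), Gata4 to Arid1a (0.0345) and Gata6 to Tead1 (0.0572). The uncalled genes lay farther from any other, from Tbx5 with Meis2 (0.0743) and Mef2c with Camk2d (0.107) to Isl1 with Sirt1 (0.308) and Hand2 with Irx5 (0.635). The candidates share the libraries and both groups, so that likeness mostly means a similar fold change.

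Markers of other cells moved with these changes, and their part in them was not tested. Beside the counts that follow, 31.2% of all tested genes were higher and 31.8% lower. Of 15 cardiomyocyte markers 14 were matched and all 14 were read, with a summed level of 21525 to 22114 CPM in the controls and 23439 to 26640 CPM with progesterone, and 7 of 14 rose and 4 fell. Actc1 (4627 and 7514 CPM) and Nppa (3547 and 4669 CPM) had the highest means over all 6 libraries, and both rose. Myh6, above Nppa in the controls, fell (4384 and 3498 CPM). Tnnt2 (2307 and 1881 CPM), Myl3 (1270 and 1166 CPM) and Pln (831 and 737 CPM) were the others that fell. Such a sum is weighted to its most read genes, here with Actc1 and Nppa among them, and does not describe the list as a whole. Fibroblast markers summed to 27955 to 29146 and 37797 to 40672 CPM (7 of 12 higher, 3 lower), led by Col1a1 (14907 and 16727 CPM) and Col3a1 (6556 and 13735 CPM). The 3 that fell were Dcn (2094 and 946 CPM), Pdgfra (804 and 370 CPM) and Ddr2 (243 and 150 CPM). Smooth muscle and pericyte markers, summed to 2666 to 3007 and 6063 to 6704 CPM (12 of 13 higher, 1 lower). Pdgfrb (880 and 1048 CPM) was the highest in the controls and Acta2 (690 and 2611 CPM) with progesterone. Leukocyte markers summed to 43.7 to 73.2 and 212 to 237 CPM (11 of 12 higher, 1 lower). The highest was Cd74 in the controls, which fell (12.6 and 1.63 CPM), and Lyz2 with progesterone (7.06 and 110 CPM). Myh6, Cd74 and their ranks, and also Tnnt2, Myl3, Pln, Dcn, Pdgfra and Ddr2, were chosen for naming after their values were seen. Epicardial markers summed to 170 to 184 and 218 to 246 CPM (6 of 11 higher, 3 lower). Endothelial markers, led by Eng, summed to 697 to 787 and 559 to 642 CPM (3 of 11 higher, 5 lower), with Cldn5 at 0 in every library. Skeletal muscle markers summed to 2.99 to 3.78 and 23.9 to 29.6 CPM (3 of 4 tested higher, 0 lower), with Myf5 at 0 and Myh3 the highest over all libraries, and Schwann cell and neuron markers, led by Tubb3, summed to 48.5 to 56.9 and 49.9 to 61.5 CPM (3 of 7 higher, 1 lower).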

How the data were processed

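The 6 RNA-seq libraries, 3 per group, were grouped by title. mRNA enrichment and an Illumina TruSeq kit were used, per the labels' protocols. Alignment tool and build appear as Bowtie 0.12.2 and mm8 in the submitters' processing notes. The latter is a mouse build, while row identifiers are those of rat Ensembl genes. Not given in the sources used here are the rat build, the read counter and the strand setting, and coordinates of rows are those of the deposited table. The authors deposited raw counts per gene and FPKM values per gene, the latter scaled by gene length and library total. The table holds 682 assembled loci without a name. Symbols of 277 clone-named rows came from RefSeq (GRCr8, names and promoters alone).

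The test was that of edgeR 4.0.16 (R 4.3.3) on the counts, after filterByExpr (at least 10 counts, total at least 15) and TMM scaling. Fits were robust quasi-likelihood fits (glmQLFit, glmQLFTest), and p-values were adjusted by Benjamini-Hochberg with a threshold of 0.05. SEs and 95% intervals come from the F statistic. Levels are FPKM, or CPM scaled by TMM. Ratios between paralogs used FPKM within a library and exact permutation tests (scipy 1.17.1). Intervals cover the spread between these libraries only. Libraries of a group correlated at 0.991 to 0.992 in log2 CPM (Pearson), and those of different groups at 0.897 to 0.907. In simulated counts for 15075 genes, 50 genes per fold size were changed. The share called was 48% for 1.25-fold, 60% for 1.5-fold, 70% for 2-fold and 94% for 4-fold changes, beside 8 false calls. Far fewer genes were changed there than the 63% called in the data, which alters the adjustment of p-values. These shares therefore do not give the sensitivity of the test in the data.

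The members and gene lists were chosen with earlier results of these data known. Named genes are the 10 members, up to 4 higher and 4 lower genes per list with the smallest adjusted p and a mean of at least 1 CPM, the 2 nearest profiles per member and the 2 most read genes per marker list. Genes added after their values were seen are marked. Some genes that the rule names are not reported here. Alternatives were other scalings and filters, DESeq2 1.42.0, limma 3.58.1 on log2(FPKM + 1) and log2(FPKM + 0.1), a replicate block and each library left out.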

Additional observations from a re-analysis of the deposited data

How the results depend on the processing

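The same 6 genes (Tbx20, Nkx2-5, Mef2a, Gata6, Gata4 and Mef2d) were called, in the same directions, under every alternative run except upper quartile scaling, where 5 were higher and 0 lower because Mef2d had a log2 fold change of -0.10 (adjusted p = 0.10). Upper quartile scaling also gave 60.1% of changed genes as higher, against 49.6% with TMM, and Tbx5 at 0.079. Over all genes the number changed was 9497, 8608 with DESeq2 and between 8686 and 9131 with 1 library left out. Leaving out 1 library left 5 members higher and 1 lower in each case. It turned the sign of Tbx5 (0.012 without control replicate 1 and 0.065 without progesterone replicate 1; range -0.084 to 0.065), of Mef2c (-0.017 without progesterone replicate 2; range -0.017 to 0.18) and of the Gata4 to Gata6 difference in log2 ratio, which ran from -0.10 to 0.014 (the highest without control replicate 1). The cause was not tested. The Mef2a to Mef2c difference ran from 0.10 to 0.31, Mef2d to Mef2c from -0.38 to -0.16 and Tbx5 to Tbx20 from -0.54 to -0.39. Whether the replicate numbers pair the libraries was not settled. Correlations of deviations were 0.0263 to 0.0754, with 4 of 6 libraries closest to their own number. With the number as a block 9508 genes changed, with the same 6 members. Isl1, at 12 to 26 counts per library, was below the filter of 1 CPM in 3 libraries, where it has no value.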

Other observations

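Across the transcription factor families of the deposited table, 304 of 1039 tested rows were higher and 298 lower with progesterone (57.9% called, against 63% of all genes), with a median log2 fold change of -0.00. The family of basic helix-loop-helix genes, to which Hand2 belongs, had 20 of 60 higher and 27 lower, with a median of -0.16. Homeobox genes, to which Nkx2-5 and Isl1 belong, had 17 of 56 higher and 18 lower, with a median of -0.08. Rows with a GATA-type zinc finger, a class that also holds genes other than Gata1 to Gata6, had 9 of 14 higher and 2 lower, with a median of 0.15.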
